A study of Mus musculus with 8 samples.

Results

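The miRNAs described here come from the imprinted Dlk1-Dio3 domain of the mouse. They were taken by name: every array miRNA whose number is one of the miRNA numbers of that domain, with any letter, arm suffix or asterisk. This gave 74 of the 650 miRNAs on the array (611 mouse, 39 herpesvirus), from 50 hairpin genes. All 74 could be placed between Dlk1 and Dio3 in the RefSeq gene order, so the label held for each of them.

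RNA came from lungs of female C57BL/6 mice, which the series title calls C57BL/6 Bom Tac dams, that had been treated while pregnant. Printex 90, a commercial carbon black nanoparticle, was given in nanopure water into the trachea as 4 doses of 0.067 mg (0.268 mg in total), the first on day 7 of gestation and the others on days 10, 15 and 18. The vehicle control mice received nanopure water by the same route, and lungs were taken at weaning, 26 to 27 days after exposure. There were 4 vehicle control and 4 Printex 90 samples, each on a one-colour miRNA array. The animals' age is not stated, nor whether a sample was a single mouse or a pool, so the p-values measure only the spread between these samples. The 8 arrays were on the same slide, scanned together, with controls in slide row 1 and Printex 90 samples in row 2, so row and treatment cannot be told apart.

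The Dlk1-Dio3 domain carries protein-coding genes read from the paternal chromosome (Dlk1, Rtl1, Dio3) and long non-coding RNAs read from the maternal one (Meg3, the antisense transcript of Rtl1, Rian, Mirg). Its miRNAs are cut from those maternal transcripts, so they share a promoter region and an imprint and are often treated as a single unit. They are best known from embryo, placenta, brain and skeletal muscle. miR-127, miR-136, miR-431, miR-433 and miR-434 lie antisense to Rtl1 and can cleave its mRNA by full pairing.

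The mature sequences below are those of the miRNAs that the array measured above background, because the text that follows turns on which strands of which hairpins gave a signal. They are RefSeq sequences (GRCm38.p6), written 5′ to 3′ in RNA letters with the seed, bases 2 to 8, in capitals. Array names without an arm suffix were assigned to an arm from the naming history of these miRNAs, since the array files hold no sequence. The first group was detected on all 8 arrays, in chromosome order.
miR-411* (miR-411-3p): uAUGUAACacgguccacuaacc
miR-299* (miR-299a-3p): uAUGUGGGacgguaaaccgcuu
miR-329 (miR-329-3p): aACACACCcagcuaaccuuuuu
miR-494 (miR-494-3p): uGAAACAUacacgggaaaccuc
miR-667 (miR-667-3p): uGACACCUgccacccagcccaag
miR-376b (miR-376b-3p): aUCAUAGAggaacauccacuu
miR-376a (miR-376a-3p): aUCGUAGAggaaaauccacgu
miR-668 (miR-668-3p): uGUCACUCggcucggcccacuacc
miR-485* (miR-485-3p): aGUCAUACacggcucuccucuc
A further set was detected on some arrays, and miR-487b belongs to it as well.
miR-540-5p: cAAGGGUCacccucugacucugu
miR-127 (miR-127-3p): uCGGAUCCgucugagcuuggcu
miR-434-3p: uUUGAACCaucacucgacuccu
miR-539 (miR-539-5p): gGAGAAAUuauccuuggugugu

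No seed recurred among these 13 sequences. Other mouse miRNAs carry some of them: the seed of miR-411* is also that of miR-379-3p, and the seed of miR-329 is also that of miR-362-3p, which is not a Dlk1-Dio3 miRNA. miR-376a and miR-376b differed at 3 positions, counted from the 5′ end with the miR-376a base first: G4A inside the seed, A13C and G20U. miR-411* and miR-379-3p differed at 2, C10U and C22U. miR-299* and miR-299b-3p differed at 0 of the 18 positions that RefSeq gives for miR-299b-3p, seed included.
miR-379-3p: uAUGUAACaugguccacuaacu
miR-299b-3p: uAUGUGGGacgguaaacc
Whether the probes of these close pairs read a single miRNA each was not tested.

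Few of the cluster's miRNAs were measurable in these lungs. Detection on an array required a probe of the miRNA with 50% or more of its spots well above background. By this rule 9 of 74 members were detected on all 8 arrays (12.2%), 5 on some arrays and 60 on none. Of the other 537 mouse miRNAs, 231 were detected on all arrays (43.0%), and of the 39 herpesvirus miRNAs, which mouse lung should lack, 3 were (7.69%). Between 9 and 14 members were detected per array. In whole lung, fewer cells that carry a miRNA and less of it per cell cannot be told apart.

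By position in the domain, all 9 members detected throughout lay in the distal stretch from Mir379 to Mir410, which holds 52 members from 37 hairpins and overlaps Mirg. The proximal stretch, labelled Meg3 to Rian, was taken from the start of Dlk1 to the start of Rian. It includes the hairpins antisense to Rtl1 and holds 20 members from 11 hairpins. There 0 were detected on all arrays and 3 on some (miR-540-5p, miR-127 and miR-434-3p). Between the start of Rian and Mir379 lie miR-341 and miR-370, detected on 0 arrays. The difference between the stretches rests on the detection rule. Detection on at least 1 array gave 11 of 52 distal and 3 of 20 proximal members, and the scanner software's own call on all 8 arrays gave 10 of 52 and 3 of 20.

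**Figure D1:**
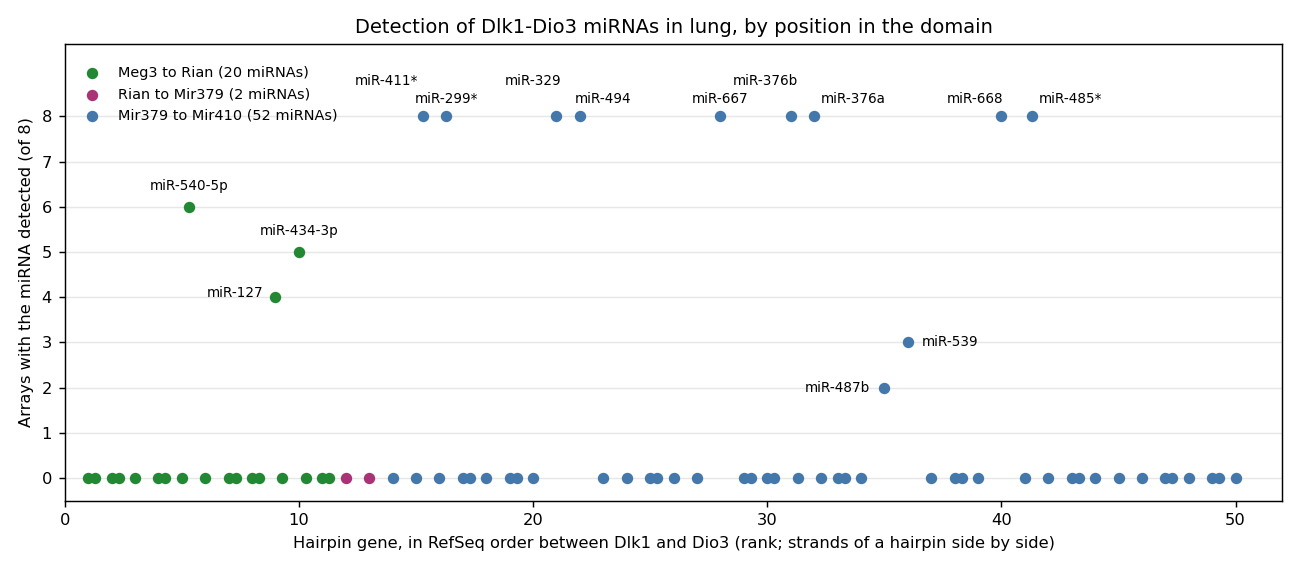
Number of the 8 arrays on which each of the 74 miRNAs was detected (vertical axis) against the rank of its hairpin gene in RefSeq order from Dlk1 to Dio3 (horizontal axis), coloured by stretch. The 9 miRNAs at the top all lie between Mir379 and Mir410, while 60 points lie at 0.

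The members detected on no array included several that are studied in other tissues, such as miR-134, which limits dendritic spine growth in neurons. In the proximal stretch these 17 were miR-770-3p, miR-770-5p, miR-673-3p, miR-673-5p, miR-493, miR-337-3p, miR-337-5p, miR-540-3p, miR-665, miR-431, miR-431*, miR-433, miR-433*, miR-127*, miR-434-5p, miR-136 and miR-136*. Of the 41 in the distal stretch, those proximal to miR-376c were miR-379, miR-411, miR-299, miR-380-3p, miR-380-5p, miR-1197, miR-323-3p, miR-323-5p, miR-758, miR-679, miR-1193, miR-666-3p, miR-666-5p, miR-543 and miR-495. The next were miR-376c, miR-376c*, miR-654-3p, miR-654-5p, miR-376b*, miR-376a*, miR-300, miR-300*, miR-381, miR-544, miR-382, miR-382*, miR-134 and miR-485. The most distal were miR-453, miR-154, miR-154*, miR-496, miR-377, miR-541, miR-409-3p, miR-409-5p, miR-412, miR-369-3p, miR-369-5p and miR-410. These are not well above background here, which does not show that they are absent.

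The detected strand was in several cases the one that carries the asterisk, the mark once given to the strand thought to be the less abundant of a hairpin. Of the 13 asterisked members 3 were detected, and these were detected on all arrays: miR-411*, miR-299* and miR-485*. Their partners miR-411, miR-299 and miR-485 were detected on none. For miR-376a, miR-376b and miR-127 it was the reverse, with the unmarked strand detected and the asterisked strand on no array. A detected strand came from 14 hairpins, 8 of them with both strands on the array, and 0 of these had both strands detected. Over all 74 members, 18.9% were detected on at least 1 array. Strand counts for the other mouse miRNAs are not given, so these counts are not shown to be particular to the cluster. For comparison with the sequences above, the undetected partners of miR-411* and miR-299* read as follows.
miR-411 (miR-411-5p): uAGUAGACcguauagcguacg
miR-299 (miR-299a-5p): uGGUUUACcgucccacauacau

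The levels below are processed spot intensities summed over a miRNA's probes and divided by the 75th percentile that the same array showed for the 240 mouse miRNAs that all arrays detected. A relative signal of 1 therefore equals that percentile. The 9 members lay between 27.6 and 273.8 intensity units before scaling, each from 20 spots per array. Probes bind with different strength, so the levels of different miRNAs are not compared. Values are given for replicates 1 to 4 of each group in turn, then as mean ± SD (n = 4 in each group).

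miR-411* measured 0.126, 0.116, 0.141 and 0.110 in controls and 0.142, 0.141, 0.131 and 0.137 after Printex 90. The Printex 90 arrays lay close together near the top of the control range, and control replicate 3 overlapped them. The means were 0.124 ± 0.0135 and 0.138 ± 0.00491. miR-299*, from the next hairpin but with another seed, measured 0.0565, 0.0522, 0.0664 and 0.0498 against 0.0657, 0.0487, 0.0476 and 0.0453. Here 3 of the 4 Printex 90 arrays lay below all controls, while Printex 90 replicate 1 stood with the highest control (means 0.0562 ± 0.00735 and 0.0518 ± 0.00936).

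miR-329, which like miR-134 is known from neurons, measured 0.112, 0.113, 0.131 and 0.108 in controls and 0.123, 0.126, 0.112 and 0.112 after Printex 90. All Printex 90 values lay within the control range. miR-494 measured 0.352, 0.431, 0.339 and 0.278 against 0.382, 0.282, 0.442 and 0.337. The groups covered nearly the same range, with means of 0.350 ± 0.0631 and 0.360 ± 0.0681. miR-667 measured 0.0921, 0.108, 0.102 and 0.0876 against 0.0961, 0.101, 0.0671 and 0.0751. Its Printex 90 replicates 3 and 4 lay below all controls and the other two within their range (0.0973 ± 0.00911 and 0.0849 ± 0.0164).

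The miR-376 family, whose precursors are known targets of adenosine-to-inosine editing in the seed, varied most from array to array. miR-376b measured 0.0825, 0.0684, 0.107 and 0.0712 in controls and 0.116, 0.103, 0.0714 and 0.0826 after Printex 90. miR-376a measured 0.0886, 0.0546, 0.0790 and 0.0479 against 0.109, 0.0824, 0.0479 and 0.0507. Both were highest on Printex 90 replicate 1, and in both the groups overlapped over most of their range. The means were 0.0824 ± 0.0177 and 0.0933 ± 0.0201 for miR-376b and 0.0675 ± 0.0194 and 0.0724 ± 0.0288 for miR-376a.

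miR-668 measured 0.123, 0.118, 0.120 and 0.101 in controls and 0.119, 0.105, 0.0974 and 0.102 after Printex 90. Control replicate 4 lay among the Printex 90 arrays and Printex 90 replicate 1 among the controls. miR-485* measured 0.220, 0.2499, 0.257 and 0.193 against 0.231, 0.220, 0.171 and 0.185. Its Printex 90 replicates 3 and 4 lay below all controls, and the means were 0.230 ± 0.0293 and 0.202 ± 0.0283.

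**Figure D2:**
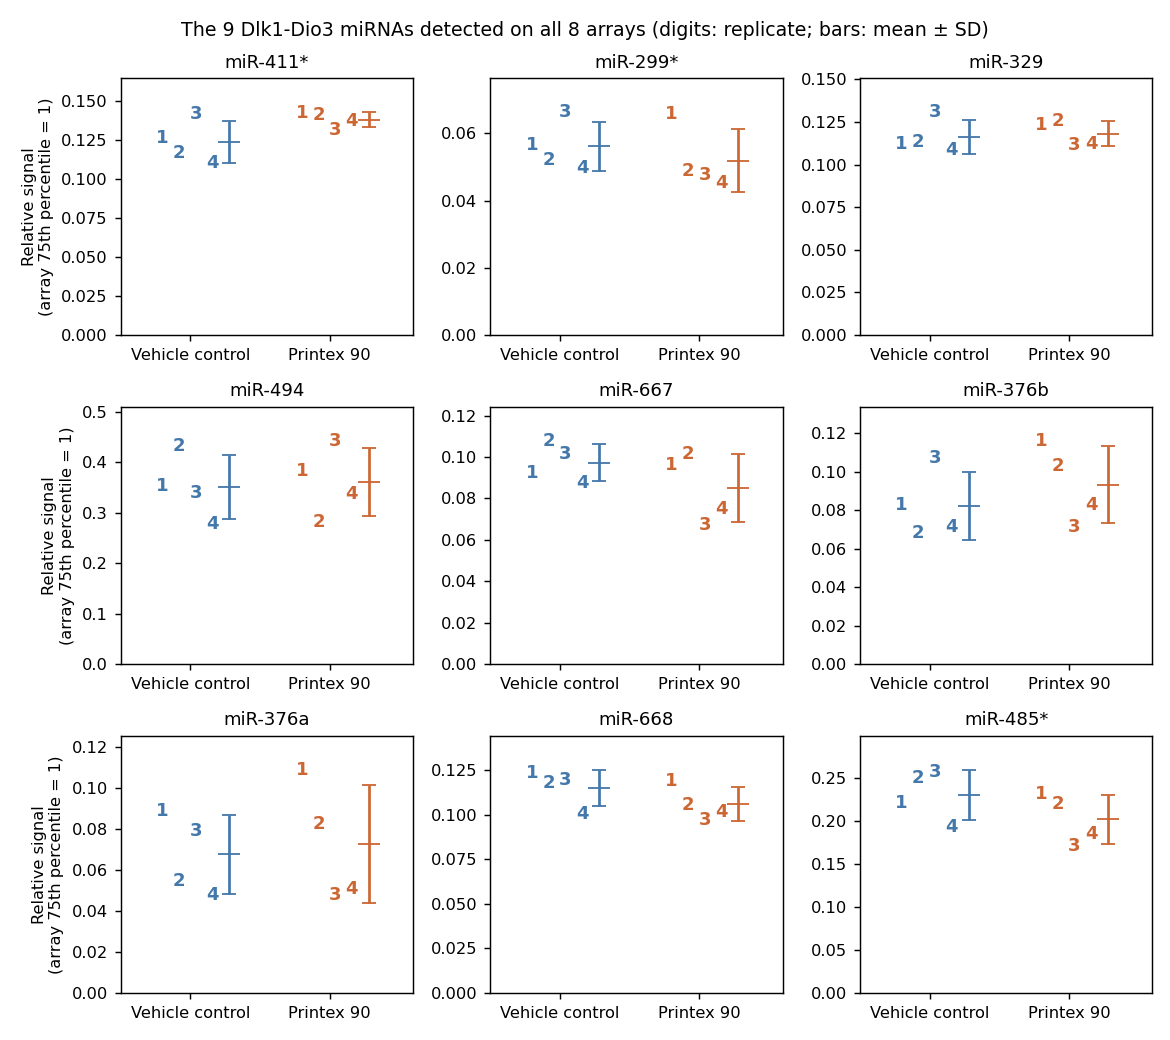
Relative signal (vertical axes, array 75th percentile = 1, each starting at 0) of the 9 miRNAs detected on all 8 arrays, with digits for the replicates of each group and bars for mean ± SD (n = 4). The groups overlap in every panel. In miR-411* the Printex 90 values sit between 0.131 and 0.142, and in miR-376a they run from 0.0479 to 0.109.

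Among the members near background, miR-540-5p was detected on 3 arrays of each group. It measured 0.0617, 0.0734, 0.0764 and 0.0616 in controls and 0.0877, 0.0611, 0.0497 and 0.0604 after Printex 90. Printex 90 replicate 1 was above all controls and the 3 other Printex 90 arrays below them. miR-434-3p, antisense to Rtl1, was detected on 2 control and 3 Printex 90 arrays and measured 0.0403, 0.0363, 0.0399 and 0.0309 against 0.0447, 0.0361, 0.0351 and 0.0316. The values of 5 arrays lay under the floor of 0.0388 to which low signals were set before taking log2, so these 5 have no order.

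miR-127, the best known of the Rtl1 antisense miRNAs, was detected on 2 arrays of each group (control replicates 1 and 4, Printex 90 replicates 1 and 2). All 8 of its values, between 0.0237 and 0.0370, lay under the floor, so no difference is given for it. miR-539 was detected on 2 control arrays and 1 Printex 90 array, with signals of 0.0522 to 0.0839 over all arrays, and miR-487b on 1 array of each group. Both fell short of the 4 arrays required for a test.

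The comparison of Printex 90 with vehicle control asks whether the miRNAs of the domain differed 26 to 27 days after particle instillation during pregnancy. Of the 12 tested members 0 passed an adjusted p of 0.05 (limma, Benjamini-Hochberg adjustment over all 268 tested mouse miRNAs). Over all tested miRNAs 0% passed as well. At an unadjusted p under 0.05 there were 0 members, where 5.60% of all tested miRNAs (15) lay. Groups of 4 arrays that did not overlap occurred in 0 members and in 1.49% of all tested miRNAs. miR-127 counts among the 12 members but could not meet any of these criteria, since all its values were set to the floor.

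By direction, 6 tested members were higher after Printex 90, 5 were lower and miR-127 was at the floor on all arrays. The median log2 difference (Printex 90 minus control) was 0.01 over the members and -0.05 over all tested miRNAs, of which 85 were higher and 176 lower. The members' median counts miR-127 as 0, which comes from the floor. Over the 9 members detected on all arrays the median was 0.02. The sign of the members' median was not stable. It was -0.04 without scaling between arrays, -0.03 with the scanner software's total gene signal and -0.06 with array weights. With another background correction (normexp) it was 0.08. Normexp here added an offset of 50 intensity units to each spot. Probes of a miRNA were then summed, so each probe brought its own offset of 50 into the sum. The summed intensities of the 9 members in the main processing lay between 27.6 and 273.8. With it the median over all tested miRNAs was 0.04. The part of the offset in these changes was not tested.

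The smallest p among the members belonged to miR-411*, 1.12-fold higher after Printex 90 with a 95% interval from 0.987 to 1.27 (log2 difference 0.16, SE 0.08, limma adjusted p = 0.706). Both of its probes gave a log2 difference of 0.16. It was above control under all 23 alternatives (0.09 to 0.23), with an unadjusted p under 0.05 in 5 of them, and its lowest limma adjusted p was 0.224, with quantile normalization. miR-376b was also above control under all 23, by 0.06 to 0.31 (main log2 difference 0.18, SE 0.20, limma adjusted p = 0.767).

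On the lower side miR-667 differed by -0.21 (SE 0.15), miR-485* by -0.19 (SE 0.13) and miR-668 by -0.12 (SE 0.09), each with a limma adjusted p of 0.724. The log2 difference of miR-299* was -0.12 (SE 0.14, limma adjusted p = 0.767). These 4 turned above control with normexp and its offset, to between 0.01 and 0.06, where the median of all tested miRNAs was 0.04. All 4 probes of miR-485* were lower after Printex 90 (-0.13 to -0.24). Only 2 of the 4 probes of miR-667, and 1 of the 4 of miR-668, were well above background on all arrays.

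miR-376a (0.06, SE 0.33), miR-494 (0.04, SE 0.18) and miR-329 (0.02, SE 0.07) differed by less than their standard errors, with a limma adjusted p of 0.934, 0.925 and 0.918. The probes of miR-329 disagreed in sign (0.07 and -0.01). Near background, miR-540-5p differed by -0.10 (SE 0.18) and miR-434-3p by 0.03 (SE 0.05). The intervals say what these arrays could have shown: for miR-329 they ran from 0.905-fold to 1.14-fold, and for miR-376a from 0.610-fold to 1.79-fold.

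**Figure D3:**
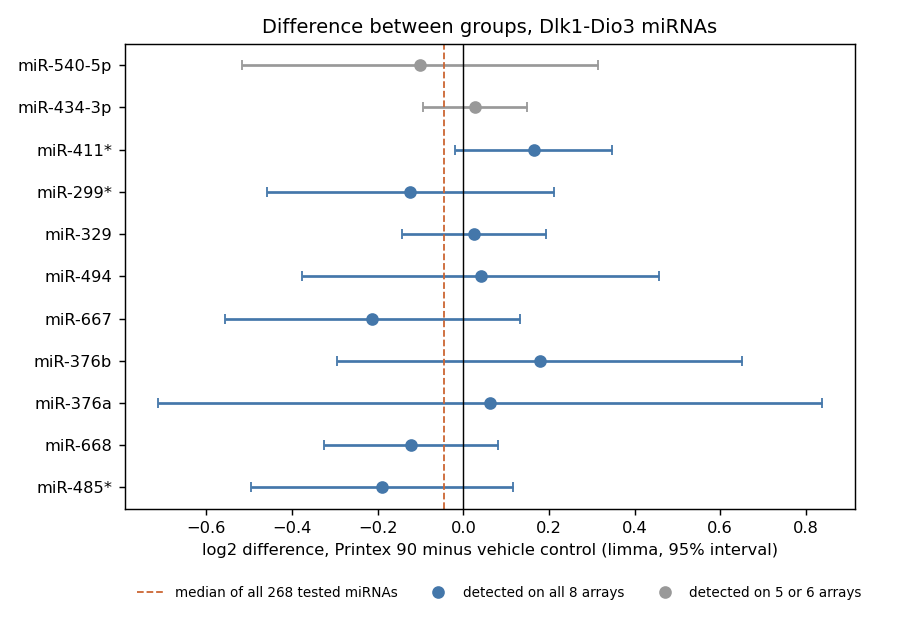
log2 difference between Printex 90 and vehicle control (horizontal axis) with its 95% limma interval for the 11 tested Dlk1-Dio3 miRNAs that were not at the floor on all arrays, in chromosome order. All 11 intervals include 0, and the dashed line marks the median of all 268 tested miRNAs at -0.05.

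The spread within groups differed among the 9 members. Their SD of log2 signal within groups had a median of 0.21, from 0.11 in miR-329 to 0.50 in miR-376a. For 117 other miRNAs detected on all arrays, with mean signals in the same range, the median was 0.14 (0.04 to 1.38), and miR-329, miR-411* and miR-668 lay below it. From the lowest to the highest array the members ranged by 1.21-fold in miR-329 to 2.27-fold in miR-376a. These are descriptions of 8 arrays, with no test.

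With the main scaling the members also stood high or low together on several arrays of both groups. On Printex 90 replicate 1 all 9 lay above their own median over the 8 arrays, and on control replicate 3 it was 8. On control replicate 4 it was 0, on Printex 90 replicate 3 it was 1 (miR-494) and on Printex 90 replicate 4 it was 2. Of the 117 miRNAs of like signal, 67 lay above their own median on Printex 90 replicate 1 and 78 on control replicate 3. The count was 27 on control replicate 4, 53 on Printex 90 replicate 3 and 16 on Printex 90 replicate 4. The median deviation of the 9 was 0.21 log2 units on control replicate 3 and 0.13 on Printex 90 replicate 1, against 0.09 and 0.02 for the 117 miRNAs of like signal. It was -0.19 on control replicate 4 and -0.20 on Printex 90 replicate 3, against -0.08 and -0.004. On Printex 90 replicate 4 it was -0.13, near the -0.11 of the 117.

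The counts of members above their own median changed with the scaling. Without scaling it was 6 of 9 on control replicate 4 and 5 on Printex 90 replicate 1. With normexp all 9 were above it on Printex 90 replicate 3. The median deviation there was 0.10 for the 9 and 0.11 for the 117 miRNAs of like signal. Relative to the other miRNAs, the members' median minus that of the 117 was above 0 on control replicate 3 and Printex 90 replicate 1 in all 8 sets of values computed (the main one, 6 other treatments of the scanner values and the authors' deposited table). It was below 0 in all 8 on control replicates 1, 2 and 4 and on Printex 90 replicate 3, where it ran from -0.23 without scaling to -0.01 with normexp. On control replicate 1 it came as close to 0 as -0.0009, in the authors' deposited table. On the other 2 arrays the sign turned: on Printex 90 replicate 2 it was 0.05 with the main scaling and -0.009 with normexp, and on Printex 90 replicate 4 it was -0.03 and, with the mean of log2 probe signals, 0.05. The members did not all follow the same arrays. miR-494 was high on Printex 90 replicate 3, where the 8 others were low, and on control replicate 2 miR-494, miR-667, miR-485* and miR-668 were high while miR-376a, miR-376b and miR-411* were low.

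Striated muscle miRNAs differed among the same arrays. miR-1 measured 0.482, 0.941, 0.832 and 0.171 in controls and 1.55, 0.131, 0.208 and 0.180 after Printex 90. All 4 listed muscle miRNAs (miR-1, miR-133a, miR-133b, miR-206) were detected, and their summed relative signal ran from 0.380 to 1.91 in controls and from 0.313 to 3.05 after Printex 90. The members' median stood above that of the 117 other miRNAs on control replicate 3 and Printex 90 replicate 1, with muscle sums of 1.70 and 3.05, but also on Printex 90 replicate 2, with the lowest sum of 0.313. It stood furthest below on control replicate 4 and Printex 90 replicate 3, with sums of 0.380 and 0.441. On control replicate 2, with a sum of 1.91, 6 of the 9 members and 84 of the 117 others lay above their own median. There the members' median minus that of the 117 was -0.008, and it was below 0 in all 8 sets of values. The liver miRNA miR-122 was also low on control replicate 4 (0.0269) and Printex 90 replicate 3 (0.0172), against 0.164 to 0.439 on the 6 other arrays. Muscle and liver miRNAs were not alone in differing. The 3 listed miRNAs of multiciliated cells had a median deviation of 0.20 on control replicate 3, 0.23 on Printex 90 replicate 1 and -0.43 on control replicate 4. On Printex 90 replicate 3, where the members were low, it was 0.46. The part of muscle, liver or other cell RNA in the members' levels was not tested. Control replicate 4 had the highest 75th percentile of all arrays (804.7 intensity units) and Printex 90 replicate 3 the lowest (580.8).

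**Figure D4:**
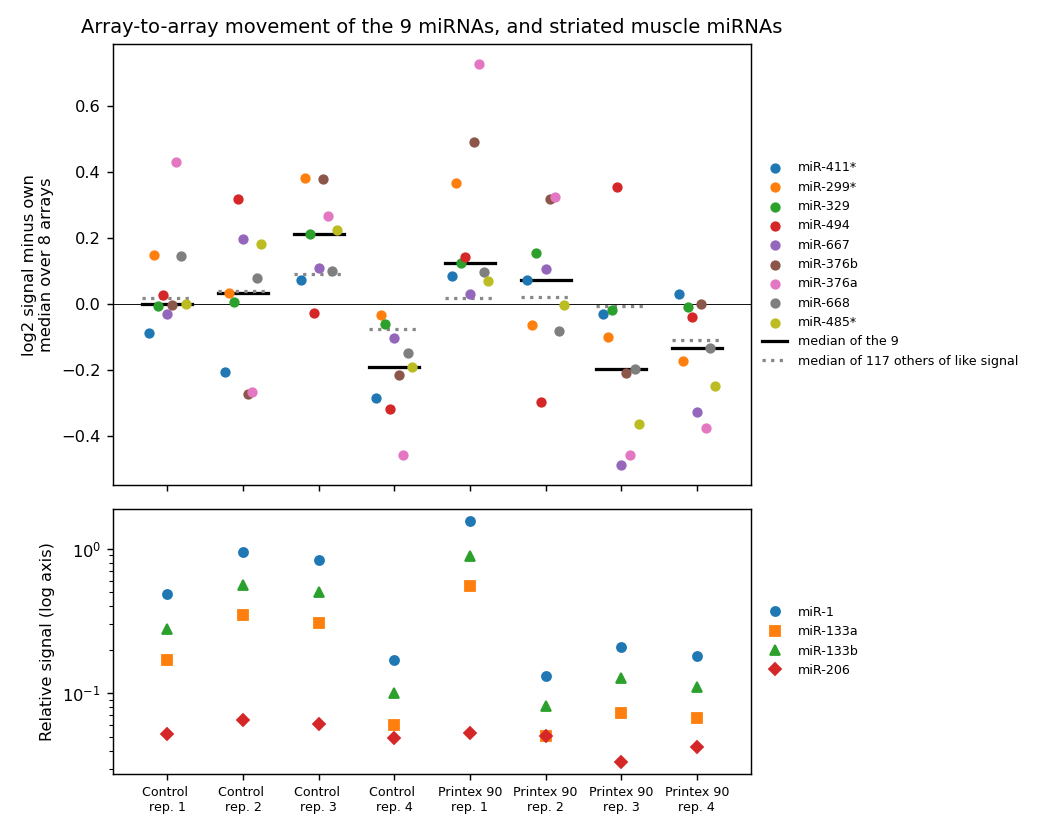
Upper panel, log2 signal of each of the 9 miRNAs minus its own median over the 8 arrays, by array, with the median of the 9 (black) and of 117 other miRNAs of like signal (dotted). Lower panel, relative signal of the 4 striated muscle miRNAs on a log axis. All 9 lie above 0 on Printex 90 replicate 1, where miR-1 was 1.55, and 0 of 9 on control replicate 4, where it was 0.171. Of the 117 others, 67 and 27 lay above their own median on these arrays.

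Lung cell markers were present. All 19 listed miRNAs of endothelial, epithelial, white blood, multiciliated and mesenchymal cells were detected on all arrays. Of 7 neural miRNAs, listed because the domain is active in brain, miR-128 was detected on all 8 arrays and miR-129-3p on 7, while miR-9, miR-9*, miR-124, miR-137 and miR-129-5p were detected on no array. The summed relative signal of the list lay between 0.0683 and 0.0768 in controls and between 0.0671 and 0.0995 after Printex 90.

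A list of miRNAs from other imprinted genes was set beside the cluster. It was limited to miRNAs of Mest, H19, Igf2 and the Gnas domain and does not cover every other imprinted miRNA on the array. Of the 9 listed 5 were tested, and 0 passed an adjusted p of 0.05 (limma), with 2 higher and 3 lower and a median log2 difference of -0.03. They were miR-335-5p (-0.03) and miR-335-3p (-0.16) of Mest, miR-675-3p of H19 (0.10), miR-483* of Igf2 (-0.09) and miR-296-5p of the Gnas domain (0.03). Printex 90 replicate 1 and control replicate 3 had all 5 above their own medians, and control replicate 4 and Printex 90 replicates 3 and 4 had 0. Of the 117 miRNAs with signals like the members', 67, 78, 27, 53 and 16 lay above on these arrays, in that order. The 3 multiciliated cell miRNAs, listed for another reason, gave 3, 3, 0, 3 and 0, so they differed from the 5 on Printex 90 replicate 3 only. Whether the 5 varied together with the cluster was not tested.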

How the data were processed

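Total RNA enriched for small RNA was labelled with Cy3 and hybridised to Agilent miRNA arrays, per the labels' protocols. Spot intensity was read by Agilent Feature Extraction 10.7.3.1 (grid 021828), per the file headers, as a processed signal per spot; array 75th percentiles still differed (580.8 to 804.7). The same deposited files give other values, flags of 0 or 1 per spot. In the authors' deposited table the values are log2, and their making is not given in the sources used (column medians 5.41 to 5.43). Per array they correlated by 0.9991 to 0.9998 with the log2 median spot signal before background correction. The deposited table served as an alternative.

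Outlier-flagged spots (2.25% to 2.76%) were left out, and saturation was absent. Spots of a probe were averaged, probes of a miRNA summed, arrays divided by their 75th percentile, values floored at 0.0388 (the 5th percentile of detected signals) and log2 taken. The 268 mouse miRNAs with detection on 4 or more arrays entered limma 3.58.1 (R 4.3.3), 2-sided, and the step was tested on simulated data. The files hold no mean spot signal, so normexp used the median, with an offset of 50. Every member is named, with values where detected. Members and lists were chosen with earlier results of these data known, and the 117 miRNAs of like signal after the members' values were seen. RefSeq tables gave gene order and sequences (20 of 22 arms looked up). The number of arrays limits the precision.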

Additional observations from a re-analysis of the deposited data

Results flagged for a closer look

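In 22 groups of 4 arrays (11 members in each group of samples), the gap between the extreme array and its nearest neighbour was compared with Dixon's 95% limit. It was passed once, where chance alone passes it in about 1.1. For miR-434-3p, Printex 90 replicate 1 was high (log2 relative signal -4.48, gap 1.00 of the range). The other 3 Printex 90 arrays had been set to the floor (-4.69), which makes the gap equal to the range. Before the floor they measured 0.0361, 0.0351 and 0.0316, against 0.0447 on replicate 1.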

How the results depend on the processing

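Over 23 alternatives, 0 members passed an adjusted p of 0.05 (lowest 0.224, limma). Over all tested miRNAs 3 passed with normexp, and 0 to 3 when an array was left out (3 without Printex 90 replicate 3), with 0 members among them. The members' median log2 difference ran from -0.09 to 0.08 and that of all tested from -0.12 to 0.04. Of 248 member differences 24 changed sign. Without scaling, miR-329, miR-376a and miR-494 were -0.046, -0.0086 and -0.030. With normexp, miR-299*, miR-485*, miR-540-5p, miR-667 and miR-668 were 0.057, 0.012, 0.080, 0.037 and 0.041. miR-540-5p was 0.0061 with the mean of log2 probe signals and 0.044 with the floor doubled. miR-434-3p was -0.070 with the total gene signal and -0.0026 with the floor halved, miR-299* 0.0031 in the authors' deposited table, and miR-494 -0.12 with array weights. Leaving out an array, the differences ran from -0.0075 to 0.083 for miR-329, -0.16 to 0.23 for miR-376a, -0.066 to 0.15 for miR-494, -0.023 to 0.045 for miR-434-3p and -0.26 to 0.016 for miR-540-5p. The cause was not tested.

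Whether equal replicate numbers are pairs could not be told from the values. Deviations from the group means correlated by -0.13, -0.38, -0.47 and 0.44 for numbers 1 to 4. Between unlike numbers they correlated by -0.83 to 0.70. With the replicate block 0 miRNAs passed, as without it. Detection calls chosen after seeing the data gave 13 members on all arrays by the scanner software, 10 with 25% of spots and 7 with 75%. Signals near background limit all members.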

Other observations

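The scanner software makes its own detection call per miRNA, which is more lenient. By that call 17 members were detected on at least 1 array and 57 on none. miR-127, miR-434-3p, miR-540-5p and miR-539 were called on all 8 arrays. It also called 3 members with no probe well above background by the rule of the text: miR-136 on 6 arrays (2 control, 4 Printex 90), miR-337-3p on 4 and miR-654-3p on 2. Of the 39 herpesvirus miRNAs it called 3 on all arrays.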
